A study of Mus musculus with 16 samples.

Results

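Musk, the agrin gene Agrn and 4 genes that act with them (Lrp4, Dok7, Rapsn and Chrna1) were followed in the brains of newborn mice. All 6 genes are on the array, with 11 probes of the 56605 measured, and 5 of the 6 were among the 26479 genes and features that could be tested. The set was chosen by the measured level of Musk, which was high in 1 of the 4 groups, the heated group, so every comparison with that group is given for these 6 genes as values, with no test. Each brain came from a C57BL/6 mouse at postnatal day 1, and the groups differed in the sperm of the father: fresh (fresh group), freeze-dried with no further treatment (freeze-dried group), X-irradiated at 5 Gy in the dry state (irradiated group) or kept dry at 95 °C for a time of 1 h (heated group). The irradiated and heated sperm had thus been freeze-dried too. There were 4 brains and 4 one-colour arrays in each group. The labels do not say whether animals of a group were littermates, so the p-values measure the spread between these arrays only.

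Agrin is a large proteoglycan that motor nerve endings release at the synapse with muscle. It binds Lrp4, a large receptor that spans the cell membrane, and Lrp4 in turn activates Musk, a receptor tyrosine kinase. Dok7 binds activated Musk from inside the cell, and rapsyn, encoded by Rapsn, anchors the acetylcholine receptors, whose alpha subunit in muscle is encoded by Chrna1, beneath the nerve ending. In skeletal muscle all of these are needed to form the neuromuscular junction. In the brain, agrin and Lrp4 are made by neurons and glia, and Musk has been described there at low levels.

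The RefSeq promoter table for the mouse build GRCm38.p6 held 4 of the 6 genes. Shown are the 250 bases before the annotated start of Musk (chr4:58285712-58285961, plus strand), of Chrna1 (chr2:73580339-73580588, minus strand) and of the first of 2 listed Agrn starts (chr4:156197489-156197738, minus strand), because Musk and Chrna1 are classical muscle genes that muscle regulatory factors bind at E-boxes, whereas agrin is made by many tissues. Capitals mark each E-box, the letters CANNTG, which read alike on both strands.
Musk: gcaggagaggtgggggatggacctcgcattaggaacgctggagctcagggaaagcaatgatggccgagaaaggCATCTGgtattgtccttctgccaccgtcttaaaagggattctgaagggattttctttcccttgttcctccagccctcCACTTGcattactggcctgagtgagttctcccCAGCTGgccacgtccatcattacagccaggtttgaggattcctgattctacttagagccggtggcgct
Chrna1: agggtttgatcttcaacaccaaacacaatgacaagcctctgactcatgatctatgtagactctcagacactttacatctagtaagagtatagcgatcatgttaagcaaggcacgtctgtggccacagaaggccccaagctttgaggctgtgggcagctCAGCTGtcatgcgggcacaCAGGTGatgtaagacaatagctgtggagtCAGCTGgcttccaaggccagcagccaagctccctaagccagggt
Agrn: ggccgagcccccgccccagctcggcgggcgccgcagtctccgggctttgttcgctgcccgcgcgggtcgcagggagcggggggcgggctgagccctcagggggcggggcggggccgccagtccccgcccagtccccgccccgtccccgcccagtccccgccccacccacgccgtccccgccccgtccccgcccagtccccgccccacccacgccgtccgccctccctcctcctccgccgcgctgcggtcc
The Musk window held 3 E-boxes, starting 177, 100 and 68 bases before the start. The Chrna1 window held 3 as well, at 92, 73 and 44 bases, and the Agrn window had 0. The window of the second Agrn start had 1 E-box and 8 CpG. Among all 32851 promoter windows of this length, 66.2% held at least 1 E-box and 12.2% held 3 or more. The Agrn window had 35 CpG dinucleotides, more than 97.0% of all windows, against 7 for Musk and 3 for Chrna1, where the median window had 6. Of the 2 listed Dok7 starts, the first had 1 E-box and 4 CpG and the second 0 E-boxes and 30 CpG. The N-box CCGGAA, searched on both strands and present in 12.03% of windows, was in none of these windows. Such matches describe the letters only; no binding was measured.

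Of the spots on an array, 59.9% to 66.1% exceeded background by the extraction software's own flag. On slide 1 were freeze-dried 1 to 4 with fresh 1 and 2 and irradiated 1 and 2, and on slide 2 heated 1 to 4 with the remaining fresh and irradiated arrays. Freeze-dried and heated brains shared no slide, so between these groups slide and treatment cannot be told apart. Single arrays stood apart in genes of a brain region or neighbouring tissue. The hindbrain and spinal cord gene Hoxb5 was between -7.75 and -6.05 in fresh 2, freeze-dried 2 and heated 2 and 4, and between -1.61 and 1.12 in the other 12 arrays, the Purkinje cell gene Pcp2 was low in heated 2 and 4, the pituitary hormone gene Gh was high in fresh 3, freeze-dried 1 and heated 1, and the keratin gene Krt14 was high in freeze-dried 2. A level is a log2 signal scaled so that 0 is the brightness of the array's own 75th percentile, and a spread is the SD of 4 arrays unless named otherwise.

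Musk, the kinase itself, was dim in every group and brightest in the heated one. Its brighter probe (A_55_P2130600) was at -5.14, -6.04, -4.37 and -5.89 in fresh 1 to 4. In freeze-dried 1 to 4 it was at -6.40, -7.72, -5.60 and -6.87. In irradiated 1 to 4 it was at -5.11, -5.57, -5.58 and -4.93, and in heated 1 to 4 at -2.93, -3.96, -3.93 and -4.72. The heated arrays lay above all freeze-dried and all irradiated arrays, while fresh 3 was above heated 4. Heated and freeze-dried arrays did not overlap for 20.3% of all genes tested, and the share for heated against irradiated arrays was not computed. The probe was well above background on 9 of 16 arrays, namely 2 fresh, 1 freeze-dried, 2 irradiated and 4 heated, and it entered the testing only because all 4 heated arrays passed.

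**Figure D1:**
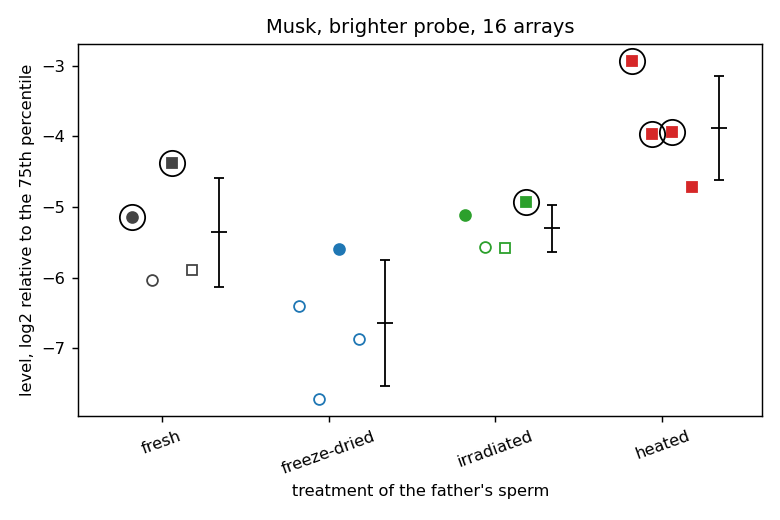
Musk level by group on each of the 16 arrays (y axis, log2 signal relative to the 75th percentile of the array; bars are the mean and SD of 4 arrays; circles slide 1, squares slide 2; filled points are well above background and hollow ones are not; large rings mark arrays low in Y-linked genes). The 4 heated arrays sit between -4.72 and -2.93 and the 4 freeze-dried arrays between -7.72 and -5.60, and in each of the 3 groups that hold both kinds the ringed arrays are the highest.

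The group means ran in the order freeze-dried (-6.64 ± 0.89), fresh (-5.36 ± 0.77), irradiated (-5.30 ± 0.33) and heated (-3.88 ± 0.73). Fresh and irradiated brains, neighbours in that order, differed by only 0.06 (SE 0.46). Heated exceeded freeze-dried brains by 2.76 (SE 0.46), which is 6.78-fold, fresh brains by 1.47 (SE 0.46) and irradiated brains by 1.41 (SE 0.46). Its range over the 16 arrays, 4.79, ran from freeze-dried 2, not well above background, to heated 1.

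The signals behind these values were small, and the fold depends on how they are treated. The raw spot read 167, 112, 115 and 86.5 units in heated 1 to 4 over a local background of 28 to 31 units. In the other 12 arrays it read between 53.5 and 96 units over a background of 30 to 34. With values below the dimmest well-above-background signal of their array raised to that signal, the difference between heated and freeze-dried brains was 1.65 (SE 0.30, 3.13-fold). The normexp background correction started from the raw spot and local background signals and added an offset of 50 units to every spot. With it the difference was 0.91 (SE 0.15, 1.87-fold). A second Musk probe (A_55_P2496660), designed for another transcript, was not well above background on any of the 16 arrays (-7.91 to -6.78). It lay at -7.10 ± 0.25 in heated and -7.60 ± 0.25 in freeze-dried brains. The dimmest well-above-background signal of an array differed too. It was at -4.73, -5.03, -5.07 and -5.52 in heated 1 to 4 and -5.47, -5.44, -5.73 and -5.61 in freeze-dried 1 to 4. Nothing is therefore read from the second probe.

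Musk levels were also higher in brains low in Y-linked genes, which mark male animals, within each group that held such brains. The Y-linked genes Ddx3y, Eif2s3y, Kdm5d and Uty were all above -4 in 2 fresh, 4 freeze-dried, 3 irradiated and 1 heated brain. In the fresh group the brains low in these genes, fresh 1 and 3, had the highest Musk levels (-5.14 and -4.37, against -6.04 and -5.89). In the irradiated group the only such brain, irradiated 4, was the highest at -4.93, and in the heated group the only brain high in these genes, heated 4, was the lowest at -4.72. All 4 freeze-dried brains were high in Y-linked genes, and that group had the lowest Musk mean. With this grouping as a block, a choice made after seeing the data, heated exceeded freeze-dried brains by 2.03 (SE 0.46, 4.09-fold). Among brains high in Y-linked genes alone, heated 4 exceeded the 4 freeze-dried brains by 1.92 (SE 0.63, with the lone heated array assumed to vary like the other groups).

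Slides and other cell types were set beside Musk in the same way. Within the fresh group Musk was 0.46 higher on slide 2 than on slide 1 (SE 0.70), and within the irradiated group 0.08 higher (SE 0.70), with 2 of 4 arrays of each group well above background. With the slide as a block, heated exceeded freeze-dried brains by 2.49 (SE 0.68). Genes of ependymal cells, which line the ventricles and carry motile cilia, had a summed signal of 9.05 to 11 multiples of the 75th percentile in heated brains and of 6.62 to 8.85 in the other 12, with all 12 listed genes well above background on every array. Of these 12 genes, 9 rose in heated against freeze-dried brains, 10 against fresh and 4 against irradiated, where 3.87%, 2.96% and 1.01% of all genes passed; the list was made with this shift known. With the slide as a block, 0 of all genes passed in heated against freeze-dried brains, so these 9 calls were lost too. The part of these cells in the Musk values was not tested, and more cells of a type and more RNA per cell cannot be told apart in whole brain.

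Genes of skeletal muscle, the tissue from which Musk is best known, were read on every array. The summed signal of 26 skeletal muscle genes was 31.9 multiples of the 75th percentile in fresh 1 and lay between 5.16 and 6.82 in the other 15 arrays. It was 5.68 to 5.85 in the heated brains and 5.79 to 6.82 in the freeze-dried ones. The skeletal muscle actin Acta1 was at 1.77 in fresh 1 and between -1.59 and -1.07 elsewhere, the embryonic myosin Myh3 at 0.65 against -3.32 to -2.41, and the myosin light chain Mylpf at 1.35 against -3.97 to -2.36. The creatine kinase gene Ckm was well above background in fresh 1 alone (-1.71), and the myogenic factor Myog in fresh 1 (-4.48) and irradiated 2 (-3.80). In the heated brains 20 of the 26 muscle genes were well above background on each array, as in fresh 2 to 4, and Ckm and Myog were not. Of the 20 muscle genes tested, 0 rose in heated brains in any comparison and 1, the alpha-actinin gene Actn3, fell against fresh brains. Of all genes, 3.87% passed against freeze-dried, 2.96% against fresh and 1.01% against irradiated brains. All groups share 1 estimate of the spread, which fresh 1 widens for muscle genes, so these counts say little. Against freeze-dried brains 7 of the 20 were higher and 13 lower in heated brains (median difference -0.13). Musk was at -5.14 in fresh 1. The part of muscle RNA in the Musk values was not tested.

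**Figure D2:**
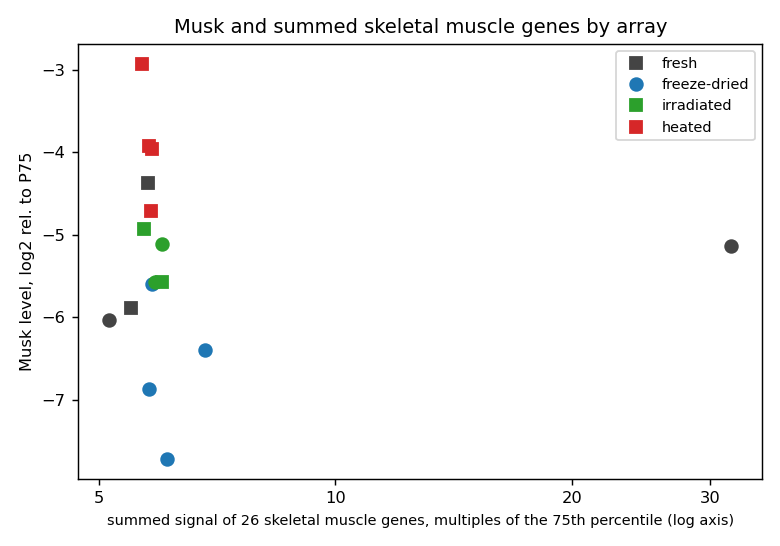
Musk level (y axis, log2 relative to the 75th percentile) against the summed signal of 26 skeletal muscle genes (x axis, multiples of the 75th percentile, log scale), 1 point for each of 16 arrays, circles slide 1 and squares slide 2. Fresh 1 stands at 31.9 on the x axis and the other 15 arrays at 5.16 to 6.82, with the 4 heated arrays at 5.68 to 5.85.

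Agrn, the ligand, stayed within a narrow band in all groups. Its brighter probe (A_55_P2009121) read 5.96, 5.75, 6.09 and 6.01 in fresh 1 to 4. The freeze-dried brains read 5.87, 5.87, 5.88 and 5.98, the irradiated ones 5.85, 5.84, 5.94 and 6.01, and the heated ones 6.08, 5.95, 5.94 and 5.84. All groups overlapped, and the whole range of 0.34 was narrower than the median range of 0.58 over genes tested. Heated and freeze-dried brains differed by 0.05 (SE 0.07). A dimmer probe of Agrn (A_55_P2009127), well above background on all 16 arrays, was at -4.25 ± 0.32 in fresh, -4.31 ± 0.13 in freeze-dried, -3.84 ± 0.27 in irradiated and -4.0 ± 0.27 in heated brains. Its order of groups was not that of the brighter probe, though both varied together over the 16 arrays (Pearson r = 0.62, given as a description).

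Lrp4, the receptor that passes the agrin signal to Musk, was slightly higher in heated brains on its brightest probe. This probe (A_52_P635078) read -0.14, -0.28, -0.12 and -0.03 in fresh 1 to 4 and -0.21, -0.06, -0.25 and -0.18 in freeze-dried 1 to 4. It read -0.30, -0.30, -0.06 and -0.08 in irradiated 1 to 4 and -0.06, -0.02, 0.03 and 0.07 in heated 1 to 4. The heated arrays exceeded the freeze-dried ones by 0.18 (SE 0.07). The 2 groups met at heated 1 and freeze-dried 2, both -0.06, and did not overlap only before rounding. No overlap between these groups was seen for 20.3% of all genes tested. Both irradiated arrays of slide 2 were above both of slide 1, by 0.23 on average (SE 0.08, limma adjusted p = 0.352), and with the slide as a block the difference of heated from freeze-dried brains was 0 (SE 0.08). The other 3 Lrp4 probes differed in direction. A_66_P139374 was at -2.69 ± 0.38 in heated and -2.96 ± 0.27 in freeze-dried brains, and A_55_P2503635, well above background on 6 of 16 arrays, at -5.08 ± 0.13 and -5.27 ± 0.22. A_55_P2680519 was lower in heated brains, at -3.48 ± 0.18 against -3.19 ± 0.11, and the mean of the passing probes gave a difference of 0.05 (SE 0.09). A_55_P2680519 and the brightest probe ran against each other over the 16 arrays (Pearson r = -0.44, as a description).

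Dok7, the adaptor that holds Musk in its active form, varied little. It was at -1.49 ± 0.13 in fresh, -1.43 ± 0.13 in freeze-dried, -1.36 ± 0.05 in irradiated and -1.33 ± 0.06 in heated brains, with a lowest value of -1.68 in fresh 2 and a highest of -1.27 in heated 4. Every group overlapped every other. Rapsn, the scaffold of the acetylcholine receptors, was dimmer and more variable, with 16 of 16 arrays well above background. It read -4.84, -4.37, -4.19 and -4.32 in fresh 1 to 4, -4.35, -4.58, -3.81 and -3.76 in freeze-dried 1 to 4, -3.89, -4.03, -4.34 and -4.55 in irradiated 1 to 4, and -3.79, -4.0, -4.0 and -4.37 in heated 1 to 4. Its lowest value was that of fresh 1, the array richest in muscle genes, and the groups overlapped throughout.

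Chrna1, the receptor subunit that Musk signalling clusters in muscle, was not well above background on any of the 16 arrays (-6.76 to -5.11). Its highest reading, -5.11, came from fresh 1. The heated arrays read -6.17, -5.53, -6.31 and -6.63, inside the range of the others. Of the remaining muscle subunits, Chrnd was well above background on 0 of 16 arrays, Chrnb1 on 1 and Chrng on 1. Only the adult epsilon subunit Chrne was so on all 16, at -4.52 to -3.79. It was at -4.29 ± 0.17 in heated and -4.31 ± 0.12 in freeze-dried brains (limma adjusted p = 0.943).

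**Figure D3:**
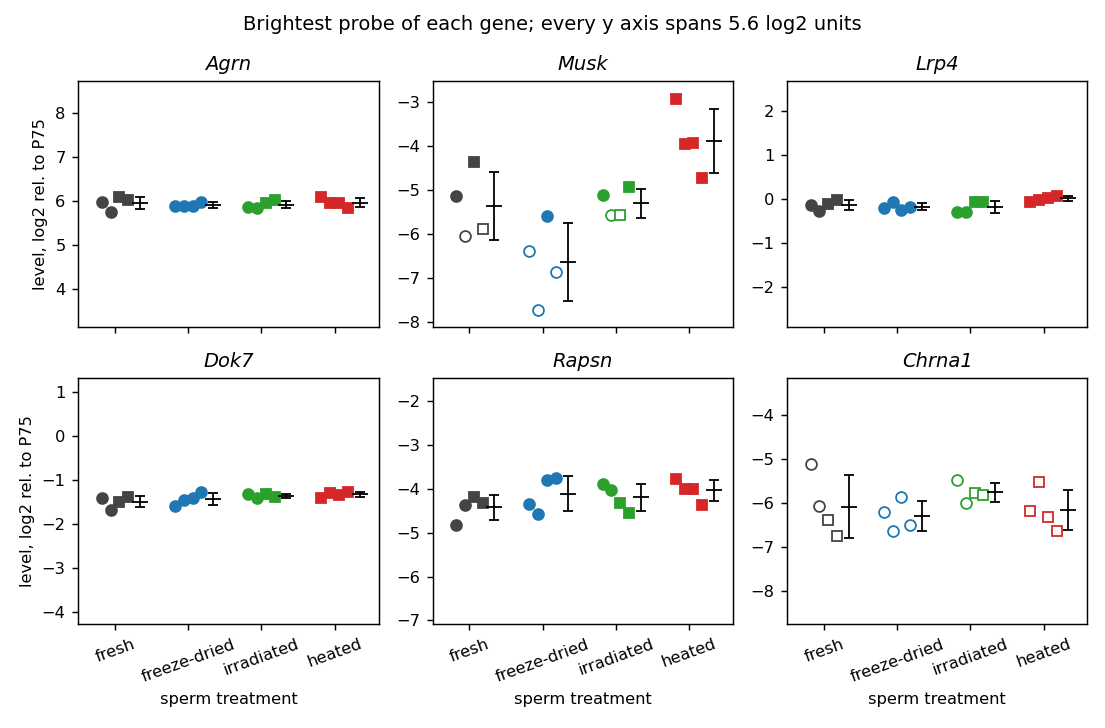
Levels of the 6 genes on their brightest probe (y axes, log2 relative to the 75th percentile of the array, P75, each spanning 5.6 units) by group (x axis), with the mean and SD of 4 arrays; circles slide 1, squares slide 2, filled where well above background. Musk spreads over 4.79 units, Agrn over 0.34, Lrp4 over 0.37 and Dok7 over 0.40, and all 16 Chrna1 points are hollow.

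The comparisons without the heated group did not choose these genes and were tested with limma on the whole table, adjusting over all genes. For Musk, which passed the filter through the heated group alone, the differences are values with no test, since most of its arrays in the other groups were not well above background. Between freeze-dried and fresh brains 0 of the other 4 tested genes (Agrn, Lrp4, Dok7 and Rapsn) passed an adjusted p of 0.05, where 0% of all genes did (0 of 26479; 2635 had an unadjusted p under 0.05). The Musk difference was -1.29 on the log2 scale (SE 0.46), with 1 of 4 freeze-dried and 2 of 4 fresh arrays well above background. The others differed by -0.05 (Agrn, 95% interval -0.21 to 0.11), -0.03 (Lrp4, -0.19 to 0.12), 0.05 (Dok7, -0.11 to 0.21) and 0.31 (Rapsn, -0.13 to 0.75).

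Between irradiated and freeze-dried brains 0 of these 4 passed as well, against 0% of all genes (1907 with an unadjusted p under 0.05). The Musk difference was 1.35 (SE 0.46), with 2 of 4 irradiated arrays and 1 freeze-dried array well above background. The 2 groups met at irradiated 3 (-5.58, not well above background) and freeze-dried 3 (-5.60) without overlapping, as they did for 4.59% of all genes tested, and nothing is read from this. On the brightest probe of each gene, Agrn differed by 0.01, Lrp4 by -0.01, Dok7 by 0.07 and Rapsn by -0.08, each within its SE. The dimmer Agrn probe was at -3.84 ± 0.27 in irradiated brains (lowest -4.13) and -4.31 ± 0.13 in freeze-dried ones (highest -4.20). This difference was not tested.

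Between irradiated and fresh brains 0 of these 4 passed, where 1.37% of all genes did. The smallest adjusted p was that of Dok7, 0.13 higher in irradiated brains (SE 0.08, 95% interval -0.04 to 0.29, adjusted p = 0.431). The Musk difference was 0.06 (SE 0.46), with 2 of 4 arrays well above background in each group. These 3 comparisons share arrays with each other.

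**Figure D4:**
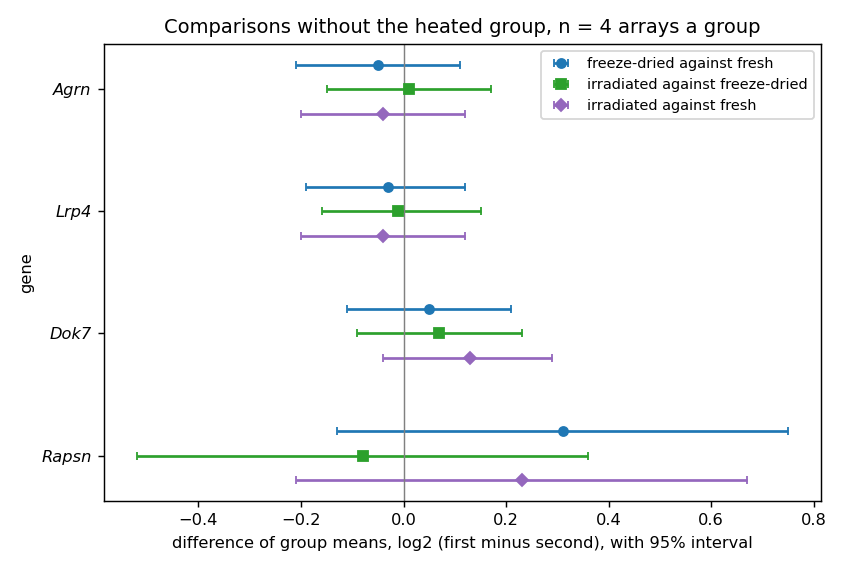
Difference of group means with its 95% interval (x axis, log2, first group minus second) for Agrn, Lrp4, Dok7 and Rapsn (y axis) in the 3 comparisons without the heated group, 4 arrays a group. Every interval includes 0, and those of Rapsn are the widest (-0.13 to 0.75 for freeze-dried against fresh).

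The heated group chose Musk, so no call is given for these genes there. Of all genes tested, 3.87% passed in heated against freeze-dried brains (662 rose and 364 fell), 2.96% against fresh and 1.01% against irradiated. Musk and, before rounding, Lrp4 did not overlap between heated and freeze-dried brains, which held for 20.3% of all genes. The count of 1026 genes against freeze-dried brains was 180 without heated 2, 286 without heated 4, 490 without heated 3, 525 without heated 1, 227 without freeze-dried 2, 540 without freeze-dried 1, 548 without freeze-dried 3 and 1551 without fresh 1. It was 12 without the 4 arrays low in Hoxb5 and 0 with the slide as a block. Agrn, Dok7 and Rapsn were higher in heated than in freeze-dried brains by 0.05 (SE 0.07), 0.10 (SE 0.08) and 0.08 (SE 0.21); with the array median as the scale, Agrn was at -0.02 instead.

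Genes around the pathway were read from lists of 108 further genes, of which 96 were tested. Between freeze-dried and fresh, irradiated and freeze-dried, and irradiated and fresh brains, 0 of 96 passed, with 11, 4 and 12 at an unadjusted p under 0.05. Of all 26479 genes, 0%, 0% and 1.37% passed, and 2635, 1907 and 4477 had an unadjusted p under 0.05. In the last of these comparisons 2 of 96 passed without fresh 4, 2 with the slide as a block and 4 of 93 in the deposited value table. Over all genes 651 passed with the slide as a block and 939 in the deposited value table. In heated against freeze-dried brains 3 rose and 0 fell (3.12% of 96, beside 3.87% of all genes). Prss12, which encodes neurotrypsin, the protease that cleaves agrin, was at 2.91 ± 0.08 in heated and 2.35 ± 0.06 in freeze-dried brains (difference 0.56, limma adjusted p = 0.0164). Its levels were 2.84, 2.99, 2.83 and 2.98 in heated 1 to 4 and 2.30, 2.30, 2.39 and 2.42 in freeze-dried 1 to 4. Fresh brains spread from 2.13 to 2.70, with fresh 3 and 4, on slide 2, at 2.55 and 2.70 and fresh 1 and 2, on slide 1, at 2.19 and 2.13. Camk2b, a subunit of the calcium/calmodulin-dependent kinase of synapses, rose by 0.41 (adjusted p = 0.011), and Vldlr, a reelin receptor related to Lrp4, rose by 0.36 (adjusted p = 0.0405). With the slide as a block the differences were 0.25 for Prss12, 0.27 for Camk2b and 0.10 for Vldlr, and none passed (adjusted p = 0.537, 0.365 and 0.85). The count of 3 became 1 without freeze-dried 2, heated 2 or heated 4, 5 without fresh 3 and 6 without fresh 1. The count over all genes, given above, also fell without freeze-dried 2, heated 2 or heated 4 and rose without fresh 1. Nothing is therefore read from these changes about the pathway.

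Against fresh brains 2 of 96 rose in the heated group, Prss12 by 0.52 (adjusted p = 0.0214) and Camk2b by 0.33 (adjusted p = 0.0242), which is 2.08% of 96 beside 2.96% of all genes. With the slide as a block Prss12 was at 0.37 (adjusted p = 0.0438) and Camk2b at 0.25 (adjusted p = 0.0785), and on slide 2 alone neither passed (adjusted p = 0.193 and 0.315). The count was 0 when fresh 1, fresh 2, heated 2 or heated 4 was left out, and 4 without fresh 3. The counts over all genes with these arrays left out are not given, so nothing is read from these changes about the pathway. Among the partners of Musk outside the cell, Colq, the collagen tail that ties acetylcholinesterase to Musk, was at -5.29 ± 1.27 in heated and -4.84 ± 0.55 in freeze-dried brains (adjusted p = 0.63), and Ache, acetylcholinesterase itself, at 0.10 ± 0.13 and -0.13 ± 0.06 (adjusted p = 0.169). Of 34 tested genes downstream of Musk 0 passed in any comparison, where 0% to 3.87% of all genes did. Of the 9 receptor kinases related to Musk 0 passed either, among them the Wnt receptors Ror1 (0.10, SE 0.17, heated minus freeze-dried) and Ror2 (0.07, SE 0.09). The other Dok adaptors gave 0 calls, with Dok4 at 0.27 (adjusted p = 0.0718) and Dok5 at 0.20 (adjusted p = 0.28). The 8 tested neuronal acetylcholine receptor subunits gave 0 calls, and Chat, the enzyme that makes acetylcholine, was at -4.42 ± 0.58 in heated and -4.34 ± 0.26 in freeze-dried brains. The heated mean mixes heated 2 and 4, low in Hoxb5, at -4.79 and -5.02, with heated 1 and 3 at -3.80 and -4.07. Fresh 2, also low in Hoxb5, was at -5.19, and freeze-dried 2 at -4.42.

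The genes whose pattern was most like that of Musk were looked for over all 16 arrays, the heated ones included. Among 15972 named genes the highest Pearson correlations with Musk were those of Igip (0.90), Gopc (0.89), Fabp3, a fatty acid binding protein (0.88), Gpr17, a receptor of oligodendrocyte precursors (0.88), and Ola1 (0.88). Over the 12 arrays without the heated group they were 0.81, 0.75, 0.85, 0.79 and 0.76. The 5 genes were picked over all 16 arrays, which include these 12, so the second values are no separate support. Of the 12, only 2 fresh, 1 freeze-dried and 2 irradiated arrays had Musk well above background. In all 5 freeze-dried 2, the array lowest in Musk, had the lowest value, and heated 1, the highest in Musk, had the highest or shared it. The points share slides, groups and scaling, and the correlations describe the arrays only. Agrn correlated with Musk at 0.45, Lrp4 at 0.36, Rapsn at 0.30 and Dok7 at 0.26, and over the 12 arrays at 0.41, -0.09, 0 and 0.10.

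**Figure D5:**
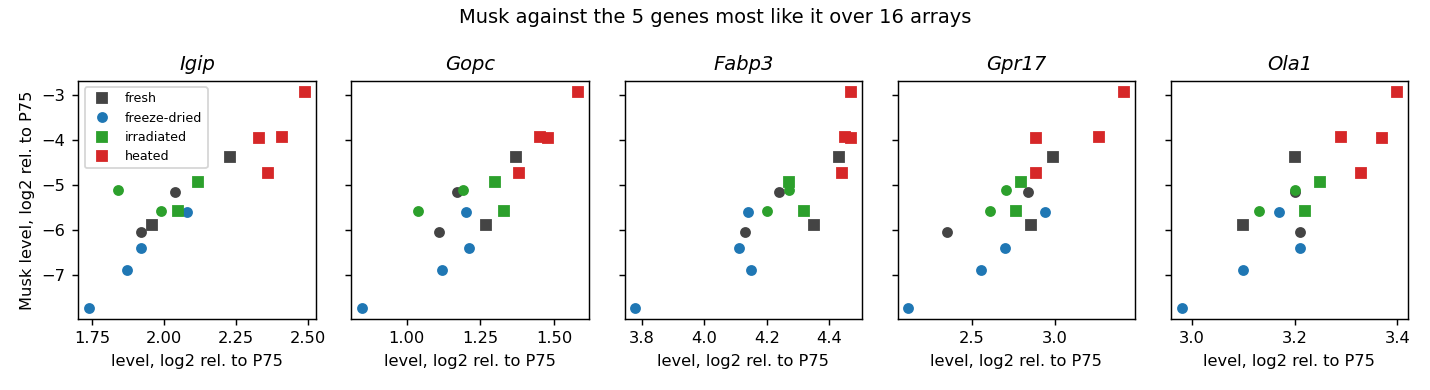
Musk level (y axis) against the level of each of the 5 genes most like it (x axes), both log2 relative to the 75th percentile (P75), 1 point for each of 16 arrays, circles slide 1 and squares slide 2. Pearson correlations run from 0.88 to 0.90, with freeze-dried 2 at the lower left and heated 1 at the upper right of every panel.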

How the data were processed

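Total RNA of 16 brains was labelled with Cy3 and hybridized to 1 one-colour Agilent array each. Per the submitters' processing notes, the authors used Agilent Feature Extraction, version 11.0.1.1, on the scans. The deposited scanner files hold fluorescence intensity per spot (processed, raw and background signals) with flags for outliers and for signal well above background, per the file headers. The deposited table of log2 values covers 31313 probes; how it was made is not given in the sources used here, and it served as an alternative.

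Accessions were named through RefSeq tables. Spots of a probe were averaged, 75 outlier spots were left out, and log2 processed signal was scaled by each array's 75th percentile. A probe stayed in when every array of some group of 4 showed it well above background (34261 probes), and the brightest probe stood for its gene, which left 26479 features. All 16 arrays were fitted with 4 group means by limma 3.58.1 in R 4.3.3 (data.table, version 1.17.8; 12 residual degrees of freedom), and a Benjamini-Hochberg adjusted p under 0.05 counts as changed. On simulated data for irradiated against fresh brains (26479 genes), 90 of 100 genes moved by 1 log2 unit and 98 of 100 moved by 2 were recovered, with 7 false calls. The simulated noise was independent and held no slide or tissue differences. Changes under 1 log2 unit were not simulated, so it does not show that small differences would be found. The number of arrays limits the precision.

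The genes and lists were chosen with earlier results of these data known. Named were the 6 genes with all probes, list genes past the threshold (up to 6 per list and comparison), a set of receptor, kinase and muscle genes, the 5 genes most like Musk and markers of arrays that stand apart; the Y-linked genes were added after seeing the data. Alternatives changed the scaling, background correction, filter, probe choice, blocks, source of values and arrays used. Replicate numbers did not pair the samples: same-numbered arrays correlated at -0.39 to 0.38 (median 0.03, 24 pairs). Promoters came from a RefSeq table (GRCm38.p6). A result for 1 gene of the pathway lists is not reported here.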

Additional observations from a re-analysis of the deposited data

Results flagged for a closer look

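In 28 sets of 4 arrays (the 6 genes and Acta1 in 4 groups), 2 held an array far from the other 3, where chance gives about 1 in 20. Agrn in freeze-dried 4 was at 5.98, above 3 arrays at 5.87 to 5.88, a gap of 0.10 that makes up most of that group's range. Acta1 in fresh 1 was at 1.77, where the next highest fresh array was at -1.36.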

How the results depend on the processing

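Musk was chosen because it was high in the heated group, so an unchanged direction there is no support for a difference. The difference of Musk between heated and freeze-dried brains kept its direction under every alternative run that kept the gene, between 2.40 and 3.11 when single arrays were left out. It moved to 0.91 with normexp background correction, to 1.65 with dim values raised to the lowest well-above-background signal and to 1.92 with arrays high in Y-linked genes only. Musk had no value with probes required above background on all 16 arrays, or in the deposited table. With the replicate number as a block the Musk difference was 2.76, and 0 of Agrn, Lrp4, Dok7 and Rapsn passed in each of the 3 tested comparisons. Agrn, Lrp4, Dok7 and Rapsn gave 0 calls in those comparisons under all 32 or 33 alternatives. Musk, mostly at background there, had values in 30 or 31 of them, and nothing is read from these. The count of genes in heated against freeze-dried brains (1026) was 117 with the array median (70.1% of calls higher, against 64.5%), 609 with no filter (83.3% higher), 0 with the slide as a block, 0 in the deposited table, 12 without the arrays low in Hoxb5, 319 without those high in Gh, 111 with Y-linked genes as a block, 154 in arrays high in them, and 180 to 1551 without single arrays, rising to 1551 without fresh 1. Pathway genes called in heated against freeze-dried brains (3) numbered 5 with quantile normalization, 6 with normexp, 0 with the array median, the slide block, the deposited table, without the arrays low in Hoxb5 and with the Y-linked block, 1 without the arrays high in Gh, and 1 to 6 without single arrays. The counts over all genes moved as well, so nothing is read from these counts about the pathway. Against fresh (2) they numbered 1 with the mean of probes, the slide block, the deposited table and the arrays without high Gh, and 0 with the array median, no filter, slide 2 only and without the arrays low in Hoxb5 (0 to 4 without single arrays). Over all genes 784 passed there, against 685 with the mean of probes, 406 with the slide block and 312 in the deposited table. With the array median 84 of all genes passed, and with no filter 267. Against irradiated brains (1) they numbered 0 with the array median, normexp, no filter, the slide block, the replicate block, the deposited table, slide 2 only, the Y-linked block and without the arrays low in Hoxb5 or high in Gh (0 to 1 without single arrays). Between irradiated and fresh brains (0) they numbered 1 with quantile normalization, the filter on all arrays and the percentile over spots, 2 with normexp and with the slide block, 4 in the deposited table and 0 to 2 without single arrays. The causes were not tested. Signal over background limits Musk, Rapsn and Chrna1.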
